A study of Mus musculus with 6 samples.

Results

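Genes of signalling through the immunoreceptor tyrosine-based activation motif (ITAM) were examined in mouse CD4+CD25+ T cells sorted by surface ILT3. There were 9 of them: the adaptor chains Fcer1g and Tyrobp, the kinases Lyn, Syk, Btk and Tec, the scaffolds Blnk and Clnk, and the phospholipase Plcg2. All 9 were found by name among the 38924 gene rows of the deposited tables, and all 9 had enough reads to enter the fit of 13694 genes. The fit asked for about 10 reads, scaled to depth, in 3 libraries. Tyrobp, Btk and Blnk had too few in 1 ILT3- library each (6, 6 and 5 reads), so they entered through their ILT3+ libraries. The group was put together from known pathway roles, and its members were also chosen on values of this same comparison of ILT3+ with ILT3- cells. Their differences are therefore given as a description without a test. The study sequenced RNA of ILT3+ CD4+CD25+ and ILT3- CD4+CD25+ T cells, 3 samples of each, from the spleen and lymph nodes of untreated wild-type mice. Both sexes were used, at an age of 10 to 16 weeks, and both groups were pre-enriched on magnetic columns for CD25+ CD4+ cells. Surface ILT3, an inhibitory immunoglobulin-like receptor best known from myeloid cells, was the only labelled difference between the groups. Separate animals are not named in the labels, so p-values here cover sample-to-sample spread that could be technical. The T cell label was checked by Cd3e, Cd4 and Foxp3, which were at no less than 604, 427 and 676 CPM (gene reads scaled to the size of the library) in any library. Depth was 9334370 to 13648274 gene reads per library.

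Fcer1g encodes the FcR gamma chain and Tyrobp encodes DAP12, short membrane adaptors that carry an ITAM and pair with receptors that have no signalling tail of their own. In myeloid, mast and NK cells, SRC family kinases such as LYN phosphorylate the ITAM, and SYK then docks on it. The scaffolds BLNK and CLNK bring TEC family kinases to PLCG2, which releases calcium and activates protein kinase C. T cells usually run the same steps with other members of these families, namely the CD3 and zeta chains, LCK, ZAP70, LCP2 (SLP-76) and PLCG1.

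The 9 genes showed 3 patterns. Fcer1g, Clnk, Plcg2, Lyn and Tec were evenly high in the 3 ILT3+ libraries. Tyrobp and Syk were also above all ILT3- libraries, but with 1 ILT3+ library far above the other 2. Btk and Blnk overlapped between the groups. By CPM, 7 of the 9 genes had no overlap between groups with ILT3+ higher, beside 11.4% of all tested genes. In edgeR's quasi-likelihood test 6 of the 9 passed an adjusted p of 0.05 as higher and 0 as lower, beside 1.96% of all tested genes higher. Nothing is read from either count, without overlap or passing, because the same contrast entered the choice. The number passing in edgeR was 3 on exon reads and 4 on intron reads. It was 3 without ILT3- sample 3, 4 without either ILT3+ sample 2 or ILT3+ sample 3, and 5 without either ILT3- sample 2 or ILT3+ sample 1. The plot of CPM by library shows the 9 genes together.

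**Figure D1:**
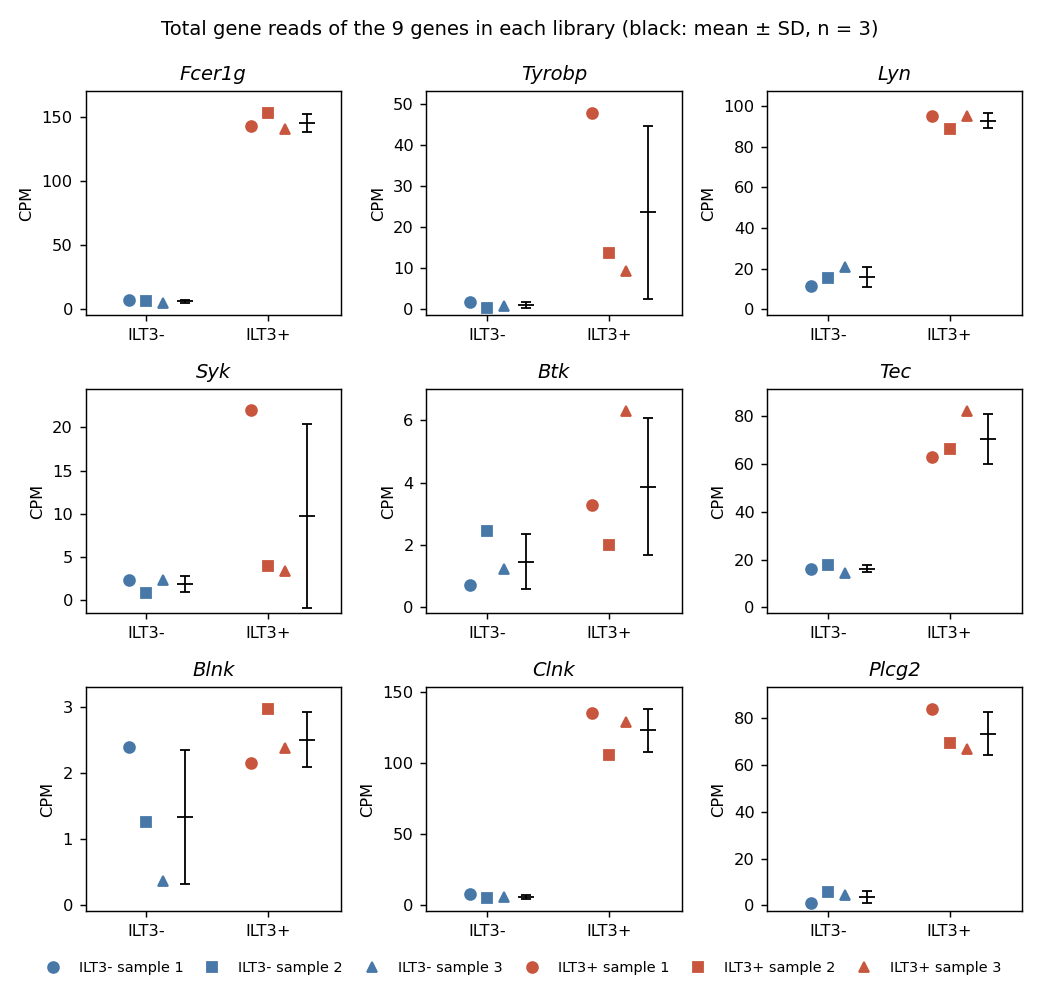
CPM of total gene reads (linear axes) for each of the 9 genes in the 3 ILT3- (blue) and 3 ILT3+ (red) libraries, with the mean and SD in black. Fcer1g, Lyn, Tec, Clnk and Plcg2 form tight high clusters in ILT3+ cells, while the ILT3+ point of sample 1 lies far above the others for Tyrobp (47.8 CPM) and Syk (22.0 CPM).

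Fcer1g had the highest level of the 9 per exon length (RPKM, given further on). Its gene lies on chromosome 1 at 171229572 to 171234365 (GRCm38, minus strand). ILT3- samples 1, 2 and 3 had 7.21, 6.21 and 5.38 CPM, and ILT3+ samples 1, 2 and 3 had 143, 153 and 140 CPM. The ILT3+ values lay close together and far above the ILT3- values, at 145 ± 6.74 against 6.26 ± 0.917 CPM (SD, n = 3 each), a 23.3-fold difference (log2 fold change 4.54, SE 0.21). Of its reads 7.84% were counted in introns. Reads across exon-exon junctions, which come from spliced RNA, numbered 404, 486 and 431 in ILT3+ and 19, 20 and 20 in ILT3- libraries. Spliced Fcer1g RNA was thus detected in all 6 libraries.

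Tyrobp, the second ITAM adaptor, was less even. It lies on chromosome 7 at 30413788 to 30417577 (plus strand). It was at 1.80, 0.471 and 0.872 CPM in the ILT3- libraries, and in ILT3+ libraries 1, 2 and 3 at 47.8, 13.8 and 9.25 CPM. All ILT3+ values lay above the ILT3- values, and ILT3+ sample 1 was more than the other two ILT3+ samples together. The log2 fold change was 4.52 (SE 0.83), and 3.48 without ILT3+ sample 1. Junction reads were 152, 55 and 38 in ILT3+ and 5, 2 and 1 in ILT3- libraries.

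Lyn, a SRC family kinase that phosphorylates both activating and inhibitory receptor tails, lies on chromosome 4 at 3678115 to 3813122 (plus strand). It was at 11.3, 15.5 and 20.8 CPM in the ILT3- libraries, and in ILT3+ libraries at 95.0, 88.5 and 95.1 CPM, a 5.84-fold difference (log2 fold change 2.55, SE 0.26). The ILT3+ values differed little from each other. In ILT3- sample 1 only 1 of 94 Lyn reads lay in an exon, against 107 of 197 and 114 of 286 in ILT3- samples 2 and 3. Only 77.1% of the Lyn reads were uniquely placed, the lowest share of the 9 genes.

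Syk, the kinase that docks on phosphorylated ITAMs, was low. It lies on chromosome 13 at 52583173 to 52648792 (plus strand). It was at 2.40, 0.864 and 2.40 CPM in the ILT3- libraries, and in ILT3+ libraries 1, 2 and 3 at 22.0, 3.94 and 3.35 CPM. Most of the group difference rested on ILT3+ sample 1: the log2 fold change was 2.37 (SE 0.88) with it and 0.95 without it. The ILT3+ libraries 2 and 3 had 3 and 4 junction reads of Syk, and the ILT3- libraries 1, 0 and 0.

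The TEC family kinases Tec and Btk, which activate phospholipase C gamma, differed from each other. Tec (chromosome 5, 72755718 to 72868483, minus strand) was at 16.2, 17.8 and 14.6 CPM in the ILT3- libraries, and in ILT3+ libraries at 63.0, 66.2 and 82.3 CPM, a 4.35-fold difference (log2 fold change 2.12, SE 0.22). Both groups were narrow for Tec. Btk, best known from B cells (chromosome X, 134542336 to 134583570, minus strand), was at 0.721, 2.44 and 1.24 CPM in the ILT3- libraries, and in ILT3+ libraries at 3.28, 2.01 and 6.30 CPM. Its groups overlapped on total gene reads, where intron reads made up 30 of the 31 reads of ILT3- sample 2. On exon reads alone they did not, with 4, 1 and 10 Btk reads in ILT3- and 33, 22 and 40 in ILT3+ libraries.

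The scaffold genes Blnk and Clnk, which are related in domain layout and function, had different patterns. Blnk, also called SLP-65 and used by B cells and macrophages (chromosome 19, 40928927 to 40994535, minus strand), was at 2.40, 1.26 and 0.363 CPM in the ILT3- libraries, and in ILT3+ libraries at 2.16, 2.98 and 2.39 CPM. These groups overlapped, at 20, 16 and 5 reads against 23, 37 and 30 reads. Clnk, also called MIST and described in mast cells, NK cells and cytokine-stimulated lymphocytes (chromosome 5, 38706462 to 38876812, minus strand), was at 7.69, 4.95 and 5.74 CPM in the ILT3- libraries, and in ILT3+ libraries at 135, 106 and 129 CPM. This was a 20.3-fold difference (log2 fold change 4.34, SE 0.25), with narrow groups. Introns held 84.7% of the Clnk reads in ILT3+ libraries. Its exon reads were 0, 0 and 15 in ILT3- and 276, 189 and 203 in ILT3+ libraries, and junction reads 0, 0 and 5 against 128, 88 and 96. Spliced Clnk RNA was therefore seen in every ILT3+ library and in 1 ILT3- library.

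Plcg2, the phospholipase at the end of the chain (chromosome 8, 117498291 to 117635140, plus strand), was at 0.961, 5.81 and 4.29 CPM in the ILT3- libraries, and in ILT3+ libraries at 84.0, 69.2 and 66.9 CPM, a 19.4-fold difference (log2 fold change 4.28, SE 0.55). Its exon reads were 3, 21 and 2 in ILT3- and 624, 655 and 602 in ILT3+ libraries. Of the 6 genes tested on both kinds of read, Plcg2 had the widest gap between them, with a log2 fold change of 6.13 on exon reads and 2.86 on intron reads.

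**Figure D2:**
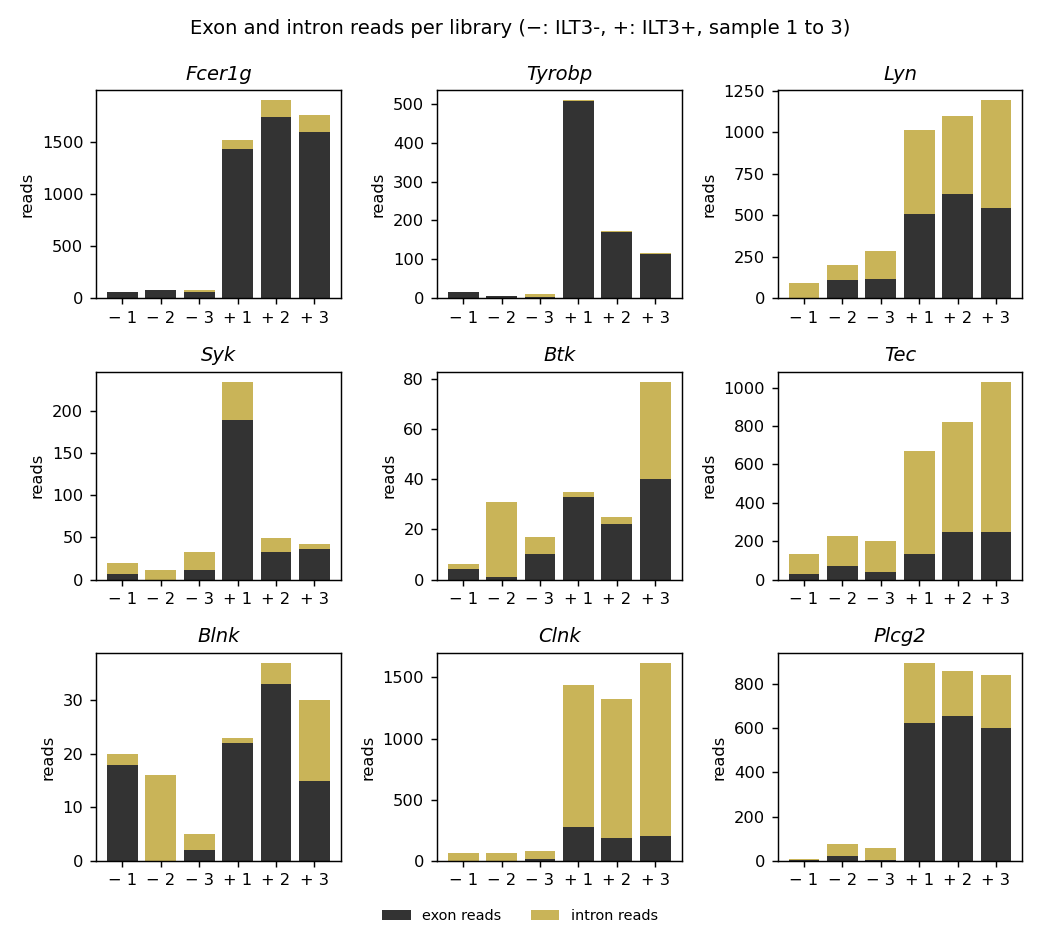
Exon reads (dark) and intron reads (yellow) stacked per library for each of the 9 genes, with its own linear axis in reads. Clnk and Tec are mainly intronic in all libraries with many reads, whereas Plcg2 in ILT3+ libraries is mainly exonic (602 to 655 exon reads per library).

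Intron shares differed widely between the genes and, for some, between the groups. Over all genes 24% to 28.3% of the reads of a library were intronic. Tec held 75.6% intron reads in ILT3- and 75.2% in ILT3+ libraries, so its share was nearly the same in both. The share of Plcg2 was 81.6% in ILT3- and 27.5% in ILT3+ cells, and that of Syk 71.9% and 20.6%. For Clnk it was 92.7% and 84.7%, and for Lyn 61.5% and 49.2%. Fcer1g, a short gene, was at 6.10% and 7.92%. The ILT3- shares of Plcg2 and Syk rest on 141 and 64 reads. Of the 9 genes Lyn, Btk, Clnk and Plcg2 overlap other annotated gene models, all on the opposite strand, and each of those had at most 2 reads per library. The plot of exon and intron reads shows these shares by library.

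Fcer1g and Clnk followed each other most closely among the 9. The root mean square difference of their centred log2 CPM over the 6 libraries was 0.22, and among the 8628 genes of at least 10 CPM that were compared each was the nearest to the other. The next nearest to both was Serpinb1a, a serine protease inhibitor gene, at 0.36 from Fcer1g and 0.29 from Clnk. For Tyrobp the nearest genes were Tmem176a and H2-Aa, both at 0.42, which were also highest in ILT3+ sample 1 (265 and 480 CPM). For Lyn they were Sccpdh and Plekhg1 (0.15 and 0.17) and for Plcg2 Dennd3 and Fam184b (0.38 and 0.41). Arap3 and Casp1 were among the nearest to Tec (0.20 each). These distances describe a pattern with 2 levels over 6 libraries, which many genes share.

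The upstream sequences of Fcer1g, Clnk and Plcg2, the evenly high genes with the largest differences, are shown because these 3 genes were high in the same libraries. They are the 250 bases before the RefSeq start (GRCm38.p6, 5′ to 3′ on the gene's strand), at chr1:171234350-171234599 (minus) for Fcer1g, chr5:38876694-38876943 (minus) for Clnk and chr8:117498025-117498274 (plus) for Plcg2. Capitals mark the letters GAGGAA, the core of sites bound by the myeloid factor PU.1, searched on both strands.
Fcer1g: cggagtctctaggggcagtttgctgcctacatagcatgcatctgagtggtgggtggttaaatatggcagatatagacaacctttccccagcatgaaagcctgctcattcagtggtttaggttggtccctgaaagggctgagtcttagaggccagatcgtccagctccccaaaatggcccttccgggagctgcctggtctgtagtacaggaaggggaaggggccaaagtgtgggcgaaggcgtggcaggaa
Clnk: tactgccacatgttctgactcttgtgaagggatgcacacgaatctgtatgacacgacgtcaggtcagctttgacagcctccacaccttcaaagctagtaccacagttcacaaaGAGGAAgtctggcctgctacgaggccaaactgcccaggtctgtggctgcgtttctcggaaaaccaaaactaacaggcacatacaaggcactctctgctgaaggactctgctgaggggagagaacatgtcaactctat
Plcg2: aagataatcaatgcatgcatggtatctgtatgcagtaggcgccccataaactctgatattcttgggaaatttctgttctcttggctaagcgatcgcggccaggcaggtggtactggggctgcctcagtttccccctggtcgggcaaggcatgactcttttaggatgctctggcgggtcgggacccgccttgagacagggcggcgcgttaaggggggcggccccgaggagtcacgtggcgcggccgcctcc
The motif occurs once in the Clnk window, 137 bases before the RefSeq start, and not in those of Fcer1g or Plcg2. The Clnk and Fcer1g windows reach into the gene models used for the counts, which begin further upstream (at 38876812 and 171234365). A Syk window, not shown, holds the motif 9 bases before its start. Another Syk window and those of Tec, Blnk and Btk, also not shown, do not hold it. The motif is in 23.3% of the 32851 RefSeq windows of the same length, and was chosen after the sequences had been seen. Of the 9 genes 7 matched an entry of this table by symbol. Spi1, the gene of PU.1, was at 1.08, 0.393 and 0.218 CPM in the ILT3- libraries, and in ILT3+ libraries at 4.41, 3.86 and 3.67 CPM.

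Between genes, levels were compared per exon length, as RPKM (exon reads per kilobase of exon length, scaled to library exon reads, computed here). In ILT3+ cells Fcer1g stood first at 229 ± 9.97 RPKM, followed by Tyrobp at 56.0 ± 48.7 RPKM (SD, n = 3). Plcg2, Lyn and Clnk came next at 16.9 ± 1.20, 15.9 ± 1.07 and 15.1 ± 4.25 RPKM, and did not differ beyond their spread. Tec was at 6.56 ± 1.76 RPKM. Btk, Syk and Blnk were last at 1.17 ± 0.346, 1.12 ± 1.22 and 0.450 ± 0.165 RPKM. In ILT3- cells Fcer1g averaged 9.79 ± 1.77 RPKM and each of the others less than 2 RPKM.

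Set beside T cell counterparts, which are given for 7 of the 9, the genes fell into those that came level with or above a counterpart in ILT3+ cells (Fcer1g, Plcg2, and Lyn against Fyn) and those that stayed below (Tyrobp, Clnk, Blnk, Syk, and Lyn against Lck). Fcer1g RPKM was 293 ± 27.1% of that of Cd247, the zeta chain, in ILT3+ and 11 ± 1.07% in ILT3- cells (SD, n = 3). This ratio depends on the exon lengths used, 800 bases for Fcer1g and 5374 for Cd247, which has 8 annotated transcripts. In exon reads of the ILT3+ libraries together, Cd247 was the higher, at 10995 against 4770. Plcg2 was at 155 ± 44.8% of Plcg1 in ILT3+ and 1.48 ± 1.84% in ILT3- cells. Tyrobp reached 46.1 ± 17.9% of Hcst (DAP10), an adaptor without an ITAM, against 1.51 ± 0.546%. Clnk was at 15.5 ± 2.42% and Blnk at 0.503 ± 0.312% of Lcp2 in ILT3+ cells. Lyn was at 102 ± 16.2% of Fyn and 5.46 ± 1.10% of Lck. Syk stayed at 1.51%, 0.196% and 0.211% of Zap70 in ILT3+ samples 1, 2 and 3. Only 34.9% of Lcp2 and 44.8% of Plcg1 reads were uniquely placed, so their levels are uncertain.

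**Figure D3:**
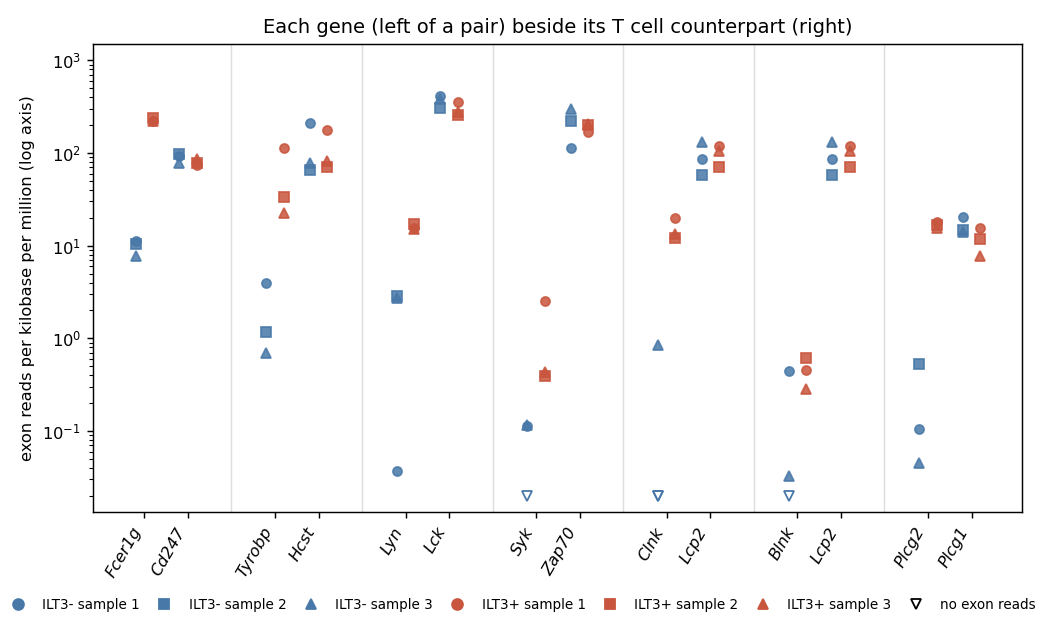
RPKM from exon reads (log axis) of 7 of the genes, each beside its T cell counterpart, in the 6 libraries, with open triangles for libraries without exon reads. Fcer1g and Plcg2 move from below their counterparts in ILT3- (blue) to above or level with them in ILT3+ (red) cells, and Syk and Blnk stay far below.

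The other genes of the pathway were looked at through 6 lists of 104 genes in all, from which the 9 genes were left out. Of these, 72 had enough reads to be tested. Of these 1 passed as higher, Klrk1, and 1 as lower, Prkcq, which is 1.39% of the tested genes in each direction. Over all tested genes 1.96% were higher and 0.343% lower. At an unadjusted p under 0.05 there were 22, or 30.6%, beside 13.8% of all tested genes in either direction. The median log2 fold change of the 72 was -0.01, beside -0.02 over all tested genes. With the sample number as a replicate block 4 of the 72 were higher and 8 lower, beside 4.18% and 2.62% of all tested genes. DESeq2 tested 86 of the 104 and called 10 higher and 4 lower, beside 4.92% and 1.57% of all genes it tested.

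Among the other ITAM chains and adaptors no change was called. All 7 were tested, Cd3d, Cd3e, Cd3g, Cd247, Cd79a, Cd79b and Hcst, with 0 called by edgeR or DESeq2 and 0 at an unadjusted p under 0.05. For Cd247 edgeR gave -0.34 in log2 with SE 0.18 (adjusted p = 0.476), and for Cd3e -0.19 (SE 0.22, adjusted p = 0.808). Cd3e was at 917, 619 and 877 CPM in the ILT3- libraries, and in ILT3+ libraries at 843, 604 and 671 CPM.

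Receptors that pair with FcR gamma or DAP12, or that carry a single ITAM tyrosine themselves, were mostly too low to test. Of 34, 6 were tested by edgeR, and 2, Fcer1a and Klra8, had no reads in any library. DESeq2 gave an adjusted p for 18 of the 34 and called 7 higher and 1 lower, beside 4.92% and 1.57% of all genes it tested. Of the 6, Klrk1, Clec7a and Fcgr3 passed the filter on low counts by their ILT3+ libraries alone, so a higher level was built into their being tested, and Cd200r3 by its ILT3- libraries alone. Klrk1 (NKG2D), which pairs with DAP10 and in mice also with DAP12, had 0, 0 and 2 reads in ILT3- and 104, 39 and 33 in ILT3+ libraries. The read ratio was 86.0 (exact 95% interval 23.5 to 716, counting error only), and the adjusted p was 0.0381 in edgeR. Its call was lost whichever library was left out (adjusted p = 0.0685 to 0.154). Cd200r4 was at 5.29, 5.34 and 4.51 CPM in the ILT3- libraries, and in ILT3+ libraries at 17.6, 20.9 and 13.8 CPM (adjusted p = 0.0542, with the block 0.0333). Fcgr3, the low-affinity IgG receptor that needs FcR gamma, was at 0.240, 1.65 and 0.654 CPM in the ILT3- libraries, and in ILT3+ libraries at 23.1, 5.15 and 9.65 CPM (adjusted p = 0.0711). Clec7a (Dectin-1) had no reads in ILT3- and 18, 10 and 13 reads in ILT3+ libraries (adjusted p = 0.0545). No read of Fcer1a, the IgE-binding chain that partners FcR gamma in mast cells, was found.

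None of the other kinases of these families was called by edgeR. Of the 10 SRC family kinases and regulators edgeR called 0, 1 had an unadjusted p under 0.05, and calls were 1 higher by DESeq2, and 1 higher and 1 lower with the block. For Lck, the main SRC kinase of T cells, the fitted log2 fold change came to -0.38 (SE 0.21, adjusted p = 0.525) and for Fyn -0.31 (SE 0.21, adjusted p = 0.609). Of 3 tested SYK and TEC relatives 0 were called in the main fit, with 1 at an unadjusted p under 0.05. Calls were 1 lower by DESeq2 and 1 lower with the block, and 0 higher by either. The log2 fold change of Zap70 was -0.18 (SE 0.30, adjusted p = 0.874) and that of Txk 0.33 (SE 0.34, adjusted p = 0.766).

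Of 27 tested scaffolds and effectors 1 was lower and 0 higher. At an unadjusted p under 0.05 there were 10, or 37%, beside 13.8% of all tested genes. DESeq2 called 1 higher and 1 lower. Prkcq, the protein kinase C theta of the T cell receptor pathway, was at 522, 340 and 386 CPM in the ILT3- libraries, and in ILT3+ libraries at 184, 129 and 128 CPM (log2 fold change -1.50, SE 0.24, adjusted p = 0.0231, edgeR). All ILT3+ values lay below all ILT3- values. Its adjusted p rose above the threshold without ILT3- sample 2 (adjusted p = 0.0729), ILT3- sample 3 (0.0844), ILT3+ sample 2 (0.121) or ILT3+ sample 3 (0.119), and on intron reads (0.0907). Lcp2, Lat and Plcg1 had log2 fold changes of 0.07, -0.33 and -0.60 (adjusted p = 0.965, 0.701 and 0.296), and Plcg1 was called lower with the block (adjusted p = 0.0426). Skap1 and Rasgrp2 were also lower and Dapp1 higher with the block (adjusted p = 0.0153, 0.00557 and 0.0437).

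Of 19 tested inhibitors edgeR called 0, 4 had an unadjusted p under 0.05, and 1 was higher and 1 lower by DESeq2. Ptpn6, the SHP-1 phosphatase that docks on inhibitory receptors, gave a fitted log2 fold change of -0.81 with SE 0.22 (adjusted p = 0.132) and was lower with the block (adjusted p = 0.0464), as was the ubiquitin ligase gene Cblb (adjusted p = 0.0247). Dok1 went the other way in the edgeR fit (0.82, SE 0.23, adjusted p = 0.137). Without overlap between groups 4 of the 19 were higher, beside 11.4% of all tested genes, and 2 lower. The median log2 fold change of the 19 was 0.00.

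**Figure D4:**
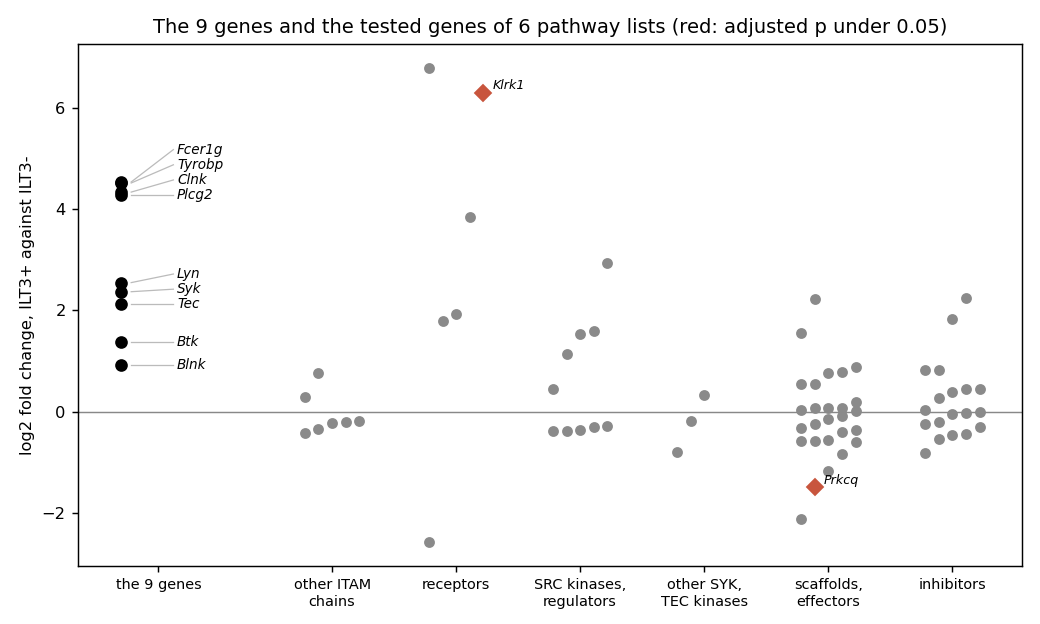
Log2 fold change of ILT3+ against ILT3- cells for the 9 genes (black) and for the 72 tested genes of the 6 pathway lists (grey, red diamonds where called). The medians of 5 lists lie between -0.21 and 0.08; no direction is read from the receptors, of which 6 of 34 were tested and 3 of these passed the filter by their ILT3+ libraries alone. Klrk1 and the top grey point, Clec7a, had at most 2 reads in ILT3- libraries, so their fitted values are no measure of size.

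Genes of other cell types that use this pathway were measured beside it, and in bulk RNA fewer cells of a type and less RNA per cell cannot be told apart. Of 15 macrophage and monocyte markers 4 were higher in all ILT3+ than in all ILT3- libraries, beside 11.4% of all tested genes, and 0 of 11 tested were called. The 15 summed to 10.0 to 34.4 CPM in ILT3- and 843, 35.0 and 37.7 CPM in ILT3+ samples 1, 2 and 3. Among the 4 was Lyz2, at 4.08, 3.06 and 0.363 CPM in ILT3- and 19.9, 5.39 and 5.82 CPM in ILT3+ libraries. Spi1 was another, at 1.08, 0.393 and 0.218 against 4.41, 3.86 and 3.67 CPM. Csf1r, the macrophage growth factor receptor, had 27, 8 and 3 reads in ILT3- and 2833, 28 and 5 in ILT3+ libraries. C1qa had 22, 0 and 0 against 825, 8 and 4 reads, and the NK marker Klrb1c 2, 3 and 0 against 255, 2 and 8. The 28 untested receptors summed to 1303 reads in ILT3+ sample 1 and to 64 and 126 in ILT3+ samples 2 and 3. Csf1r, C1qa, Klrb1c and the sum of these receptors peaked in the same library as Tyrobp and Syk. The part of other cell types in those 2 results was not tested. Without ILT3+ sample 1 the log2 fold changes of Fcer1g, Clnk, Plcg2, Lyn and Tec were 4.55, 4.27, 4.17, 2.53 and 2.20. With both samples numbered 1 left out they were 4.69, 4.49, 3.78, 2.37 and 2.23.

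**Figure D5:**
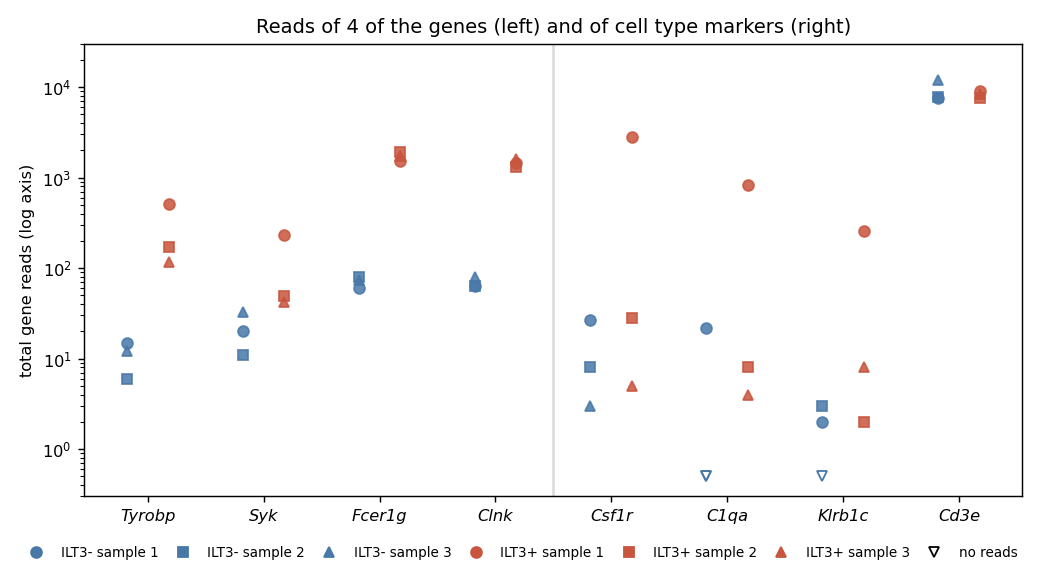
Total gene reads (log axis) of Tyrobp, Syk, Fcer1g and Clnk and of markers of macrophages (Csf1r, C1qa), NK cells (Klrb1c) and T cells (Cd3e) in the 6 libraries, with open triangles for 0 reads. ILT3+ sample 1 (red circles) stands above the other ILT3+ libraries for Tyrobp, Syk, Csf1r, C1qa and Klrb1c and not for Fcer1g or Clnk.

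Other marker lists gave the following values. Over all tested genes 11.4% were higher without overlap and 1.96% were called higher. Only tested genes could be called: 12 of 14 dendritic cell, 7 of 9 B cell, 3 of 9 mast cell and basophil and 3 of 8 NK markers. Of the plasmacytoid dendritic cell, plasma cell and platelet and erythroid lists 5 of 6, 4 of 6 and 5 of 10 were tested. Dendritic cell markers summed to 186 to 211 CPM in ILT3- and to 1800 to 2968 CPM in ILT3+ libraries, 9 of 14 without overlap and 8 called higher, led by Cd74 at 139 and 1368 CPM on average. Of its defining genes Itgax had 49, 0 and 1 reads in ILT3+ libraries and Flt3 was at 2.25, 1.29 and 2.07 CPM, beside 2.52, 1.18 and 1.38 CPM in ILT3- libraries. Zbtb46, another of them, did not overlap between the groups, at 1.44, 9.82 and 10.5 CPM in ILT3- and 11.8, 25.7 and 36.0 CPM in ILT3+ libraries. B cell markers summed to 364 to 1001 CPM in ILT3- and 949 to 1800 CPM in ILT3+ libraries, led by Ighm, with 4 of 9 without overlap and 1 called higher. Ms4a1 was at 3.66, 0.241 and 1.20 CPM in ILT3+ libraries. Of 9 mast cell and basophil markers 6 were at 0, among them Mcpt8, and Cpa3 was at 0.239 to 1.41 CPM in ILT3+ and 0.550 to 2.40 CPM in ILT3- libraries. Kit alone, at 19.0 and 179 CPM on average, made up most of that list and was its 1 call. NK markers summed to 16.0 to 82.5 CPM in ILT3- and 61.9 to 129 CPM in ILT3+ libraries, with 2 of 8 higher without overlap and 0 called. Plasmacytoid dendritic cell markers summed to 92.6 to 108 and 186 to 233 CPM, with 3 of 6 without overlap and 0 called, and plasma cell markers to 180 to 245 and 146 to 333 CPM, with 0 of 6 called. Platelet and erythroid markers summed to 2.04 to 11.2 and 42.8 to 204 CPM, with 4 of 10 without overlap and 2 called higher, while Pf4 was at 0. Neutrophil markers stayed under 0.5 CPM in sum, with S100a8 at 0. The part of these cells in the levels of the 9 genes was not tested. T cell markers summed to 5312 to 7064 CPM in ILT3- and 4564 to 5425 CPM in ILT3+ libraries with 0 of 10 called, and Foxp3 was at 862 and 861 CPM on average.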

How the data were processed

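The 6 libraries, 3 per group of sorted T cells, were made from total RNA with SmartSeq V2 and Nextera XT kits, per the labels' protocols. The authors deposited 1 table of raw read counts per sample, of genes, exons, introns and exon-exon junctions per the file headers, with gene and exon lengths as other columns. GRCm38 is named as build in the submitters' processing notes. Aligner, counter, annotation and strand setting: not given in the sources used here. Gene reads equalled exon plus intron reads in every row. Depth was 9334370 to 13648274 gene reads per library, and 3 reads correspond to 0.218 to 0.360 CPM.

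Total gene reads were fitted on group alone over the whole table with edgeR 4.0.16 in R 4.3.3 (TMM, minimum count 10, minimum total 15, robust quasi-likelihood, Benjamini-Hochberg adjustment over 13694 genes, threshold 0.05). CPM uses TMM-scaled library sizes, and the SE was obtained from the F statistic and the fold change. The procedure was tested on simulated data. Alternatives were other read types, DESeq2 1.42.0, voom in limma 3.58.1, no filter, a replicate block and left-out samples. The genes, the lists and the rule for named genes (the 9 genes, called pathway genes, T cell counterparts, defining markers and nearest patterns) were chosen with earlier results of these data known, and genes called with the block, by DESeq2 or just above the threshold were named after their values were seen. Of 211 list entries 206 matched by name and 2 by a RefSeq synonym. Within groups, chi-square over its degrees of freedom was 18.3 to 99.9 between libraries, above counting noise alone, and each was counted as 1 sample. Same-numbered samples deviated together (r = 0.400, 0.260 and 0.271 for numbers 1, 2 and 3). Some unlike numbers did so too: r was 0.163 for ILT3- sample 3 with ILT3+ sample 2. It was 0.117 for ILT3- sample 2 with ILT3+ sample 3. The labels state no pairing, and these values do not settle it. The main fit left the sample number out, and only the replicate block used it. A few genes are not reported here by name, and they stay in the counts over lists.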

Additional observations from a re-analysis of the deposited data

How the results depend on the processing

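All 9 genes kept a positive log2 fold change in every alternative that gave one. Of 123 such values 112 stayed within 1 SD of the replicates, 11 moved further and 0 reversed. Syk moved most often, in 4 of 14 settings, with a range of 0.69 to 3.82, and Plcg2 ranged from 2.86 to 6.13. On intron reads Tyrobp, Btk and Blnk had too few reads for a value. The number of all genes called, 316, was 78 on intron reads, 932 with the replicate block, 1041 with DESeq2, 786 with both samples numbered 1 left out and 31 to 322 without single libraries. Of other pathway genes 1 was called higher: this was 0 on intron reads, 2 on unique reads, with voom and without a filter, 4 with the replicate block and with both samples numbered 1 left out, 10 with DESeq2 and 0 without any single library. The 1 called lower became 0 on intron reads, 2 on unique reads, with voom and with both samples numbered 1 left out, 4 with DESeq2, 8 with the replicate block and 0 to 1 without single libraries. The cause of these shifts was not tested. Depth limits Btk, Blnk and Syk, which had at most 79 reads per library outside ILT3+ sample 1.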
